A study of Mus musculus with 19 samples.

Results

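TCR-signaled double-positive thymocytes are immature T cells that have begun to respond through the T cell antigen receptor (TCR) while their RNA still shows a CD8 coreceptor. They were picked here from single-cell RNA counts alone. A cell with at most 15% mitochondrial unique molecular identifiers (UMIs) and at least 200 genes was taken when it held at least 1 UMI each of Cd69, Itm2a and either Egr1 or Egr2, at least 1 UMI of Cd8a or Cd8b1, fewer than 2 UMIs of Bcl2l11, and 0 UMIs of Zbtb7b, Foxp3, S1pr1, Nkg7 and Mki67. The rule found 1683 of the 79569 cells that passed the filters, or 2.12%, and every one of the 17 mice held some. The same cells carried counts for 111 surface antibodies, which the rule did not use.

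In the thymus, double-positive cells carry both coreceptors, CD4 and CD8, and test a newly assembled TCR against peptide held by major histocompatibility complex (MHC) molecules. A useful signal starts positive selection: the cell induces Cd69, the receptor that holds it in the thymus, and Egr1 and Egr2, transcription factors switched on downstream of the Ras and ERK kinases, then ends TCR gene rearrangement and moves toward the CD4 or the CD8 lineage. A receptor that fits MHC class II steers its cell to become a CD4+ T cell, and one that fits MHC class I a CD8+ T cell. Zbtb7b marks the CD4 lineage, Nkg7 the CD8 lineage, Foxp3 regulatory T cells, S1pr1 cells ready to leave, Mki67 dividing cells and Bcl2l11 the death program of negative selection. The rule takes no cell with a UMI of the first 5 or with 2 or more of Bcl2l11, which does not show that a cell was outside these states, and 234 of the signaled cells held 1 Bcl2l11 UMI.

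Thymocytes came from female mice of 4 to 8 weeks, on 19 lanes of a droplet system in 3 experiments. The 5 wild-type mice (B6) were C57BL/6. The CD4-fated genotypes were AND and OT-II, which carry a transgenic TCR for MHC class II, and MHCI-/-, which lacks B2m. The CD8-fated genotypes were F5 and OT-I, which carry a transgenic TCR for MHC class I, and MHCII-/-, which lacks H2-Ab1. There were 2 mice of each of these genotypes. AND and F5 were also Rag1-/-, so their cells could form no other receptor, whereas the MHC-deficient mice kept diverse TCRs. The name of the F5 transgene places it under CD2 control. The AND line was made on the B10 background. B6 replicates 1 to 3 and all MHC-deficient mice were sorted for CD5+TCRb+ cells, and B6 replicates 4 and 5 and all transgenic mice were not. The first experiment held replicate 1 of B6, AND and F5, and the second held the MHC-deficient mice, B6 replicates 2 and 3, and the other AND and F5 mice. All OT-I and OT-II mice and B6 replicates 4 and 5, with 2 lanes each, were in the third experiment, so this family and that experiment cannot be told apart. Nor can sort and experiment among wild-type mice, since the unsorted ones alone were in the third.

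A lane held from 9893333 to 43303999 RNA UMIs and from 4484116 to 34762051 antibody UMIs. The labels of the knockouts held in the signaled cells: B2m RNA was 44.2 and 26.0 counts scaled to a total of 1000000 UMIs (CPM) in the MHCI-/- mice against 338 to 830 in the other lineage-restricted mice, and I-A/I-E protein in MHCII-/- mice was 1.18 and 1.19 per 10000 antibody UMIs. Of the 405 barcodes that lanes of an experiment shared, 9 belonged to signaled cells, and none to a pair of them. Simulated-doublet scoring called the top-scoring cells of each lane, at a rate set beforehand of 0.8% per 1000 barcodes. The share over all cells thus follows lane size and is not a measured rate. It called 92 signaled cells, 5.47%, against 4.00% of all cells. The excess was larger in the unsorted wild-type mice, at 12.9% against 6.27% in B6 replicate 4 and 14.8% against 4.09% in B6 replicate 5, and OT-II replicate 2 had 15.4%. Among marker lists of other cells, Itgax, Krt5, Klrb1c and Tbx21 had 0 UMIs in all signaled cells. The summed myeloid and dendritic list ran from 51.9 to 269 CPM over all mice, and the B cell list from 104 to 491 CPM. The summed gamma-delta T list, with none of its 4 genes at 0, ran from 19.1 to 90.19 CPM in wild-type mice, to 345 CPM in CD4-fated and to 643 CPM in CD8-fated mice. Most of it was Trdc, the constant part of the TCR delta chain, at 316 and 266 CPM in AND, 449 and 369 CPM in F5, 569 and 363 CPM in OT-I, and 70.8 and 189.9 CPM in OT-II, against 16.2 to 55.5 CPM in wild-type and MHC-deficient mice. Its part in the results was not tested. The summed erythrocyte list reached 12469 CPM in OT-II replicate 1, and 1 cell with 5335 haemoglobin UMIs held nearly all of it. Leaving that cell out left the counts of genes and antibodies called between lineages and by family as they were. Of the 4 measured negative selection markers, 3 (Pdcd1, Nr4a1 and Ikzf2) were at least 2-fold higher than in the comparator described below in every wild-type mouse, and their part in the results was not tested.

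The share of signaled cells varied widely between mice. It was lowest in OT-II replicate 2, at 0.409% with 13 cells, had a median of 1.74%, and was highest in F5 replicate 1, at 5.56% with 147 cells. The sorted wild-type mice had 4.16%, 3.38% and 1.74%, all above the 1.30% and 0.632% of the unsorted wild-type mice, those of the third experiment. Mice of 1 genotype also stood apart: F5 had 5.56% and 1.66%, with exact 95% intervals of 4.71 to 6.50% and 1.31 to 2.07%. Mice differed in depth, at a median of 1541 to 7062 RNA UMIs per cell, and in sorting, and the part of either in the share was not tested. Cells with at least 2000 UMIs were also thinned to 2000, and shallower cells were dropped. Of the 67631 cells kept, 689 met the rule, and the shares ran from 0.275% to 2.10%. In B6 replicate 5, 3447 of 9646 cells were kept, so the shares before and after thinning cover different cells. No test was made on the share, because the rule sets it. The intervals cover counting error only.

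**Figure D1:**
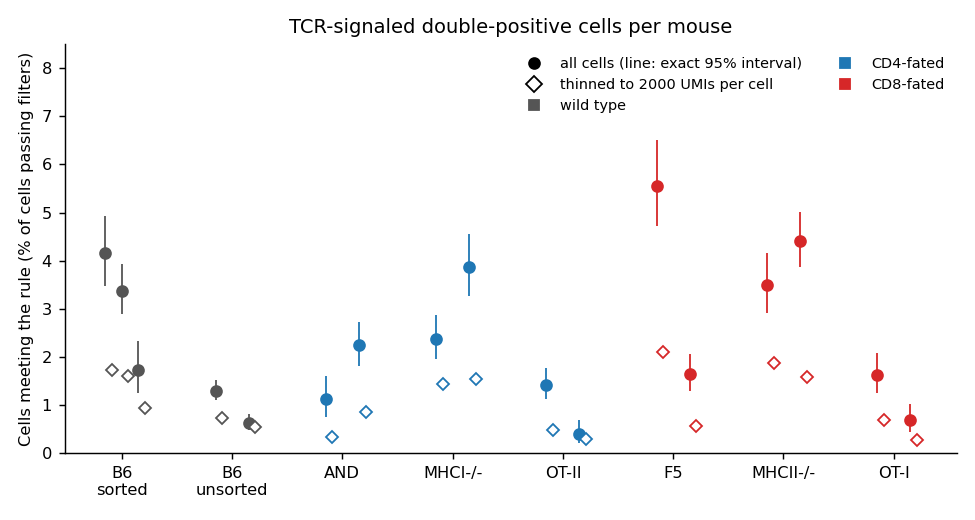
Percent of cells passing filters that met the rule in each of 17 mice, grouped by genotype and sort, with exact 95% binomial intervals as lines. Diamonds give the percent among cells with at least 2000 UMIs, each thinned to 2000. F5 replicate 1 stands highest at 5.56%, and the thinned share, over fewer cells, is lower in every mouse.

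The genes of the rule set the following values, which are a description. Over the 17 mice, Itm2a, a membrane protein induced during selection, had a median of 1362 CPM (583 to 2474), Cd8b1 634 CPM (370 to 1305), Egr1 631 CPM (479 to 1235), Cd69 591 CPM (348 to 867), Cd8a 564 CPM (320 to 1074) and Egr2 132 CPM (19.8 to 264). Egr1 alone met the Egr condition in 985 cells (58.5%), Egr2 alone in 123 (7.31%) and both in 575 (34.2%). Many cells met the rule narrowly. Cd69 rested on 1 UMI in 716 cells (42.5%) and Itm2a in 372 (22.1%), and 788 cells held at least 2 UMIs of each. Cells just outside the rule were at hand too. There were 1274 cells that failed only for lack of Cd69, 774 for Itm2a, 1763 for Egr1 and Egr2, and 987 for Cd8a and Cd8b1. The 220 cells set aside for 2 or more Bcl2l11 UMIs held 589.9 CPM of Nr4a1, the orphan nuclear receptor that reports TCR signal strength, against 168 CPM in the signaled cells.

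The double-positive label was checked on protein. A cell was called CD4+ or CD8+ where its CD4 or CD8a antibody share passed a value midway, on a log scale, between the medians of wild-type cells whose RNA marked either lineage, in the same experiment. This check was set after the data were seen. Of the 1542 signaled cells that passed the antibody filters, 83.3% were CD4+CD8+, 11.8% were CD4+ only and 4.41% were CD8+ only. In wild-type mice 79.8% were CD4+CD8+. The share ran from 34.8% in OT-I replicate 2 through a median of 80.5% to 97.5% in OT-II replicate 1, and AND replicate 1 had 46.7%. For comparison, 61.8% of all cells passing these filters and 98.0% of the preselection cells described below were CD4+CD8+, and in wild-type mice 71.5% of all cells. In the unsorted wild-type mice, signaled cells had 87.3% and 73.8% against 85.4% and 79.98% of all cells.

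Against preselection double-positive cells, 6 of 10 measured immediate early genes, 4 of 17 negative regulators of TCR signaling and 6 of 16 migration and maturation genes were at least 2-fold higher in the signaled cells of every wild-type mouse. Of 13 preselection genes, 7 were at least 2-fold lower, among them Arpp21, whose direction was set by the choice of the comparator. The comparator was 14975 cells with at least 1 UMI of Arpp21 and of Cd8a or Cd8b1 and 0 UMIs of Cd69, Itm2a, Egr1 and Egr2, under the same exclusions. The rule set this contrast, so RNA values here are a description with no test. The comparator was shallower, at a median of 2489 RNA UMIs per cell against 4201. In the 5 wild-type mice, 113 of 8289 measured genes (1.36%) were at least 2-fold higher in every mouse and 179 (2.16%) at least 2-fold lower, on the scale of log2(CPM + 5), with a median log2 ratio of -0.11 over all genes. In such sums over cells, more cells with an RNA and more RNA per cell cannot be told apart.

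The immediate early list had the highest median of the 11 pathway lists, at a log2 ratio of 2.47. The rule picked cells on Egr1 or Egr2, genes of the same response, and the comparator held neither. The selection thus favored this rank, which is no separate finding. Of the list's 16 genes, 10 were measured, a gene counting when its mean reached 10 CPM in either group. Of these 10, 6 were at least 2-fold higher in every wild-type mouse: Nab2, Fos, Junb, Ier2, Nr4a1 and Nr4a3. Nr4a1 stood at 237, 227, 165, 83.7 and 271 CPM in B6 replicates 1 to 5, against 4.59, 8.55, 2.84, 1.93 and 13.9 CPM in the comparator. The groups did not overlap, and the median log2 ratio was 4.101. Nab2, a corepressor that binds EGR proteins, had 294, 285, 102, 213 and 187 CPM against 4.47 to 34.2 CPM. Fos, the AP-1 subunit, was low but present, at 43.0, 37.9, 31.8, 39.2 and 55.5 CPM against 0 to 2.84 CPM. These genes were thus apart from the comparator in sorted and unsorted mice alike.

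The starts of Nr4a1 and Fos are shown because they carry short motifs of factors that act downstream of the TCR. Each window is the 250 bases before the RefSeq start on GRCm38.p6, which is the build of the files (mm10), and both genes lie on the plus strand. Nr4a1 is at chr15:101266596-101266845, and its capitals mark the EGR motif GCGGGGGCG, read on the other strand, whose first base in the window lies 60 bases before the start. Fos is at chr12:85473640-85473889, and its capitals mark TGACG, the core shared by cyclic AMP response elements.
Nr4a1: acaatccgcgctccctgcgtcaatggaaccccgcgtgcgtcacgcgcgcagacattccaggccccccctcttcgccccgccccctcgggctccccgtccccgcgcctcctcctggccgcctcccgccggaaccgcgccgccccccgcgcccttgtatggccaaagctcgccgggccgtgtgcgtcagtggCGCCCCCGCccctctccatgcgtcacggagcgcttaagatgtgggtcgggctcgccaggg
Fos: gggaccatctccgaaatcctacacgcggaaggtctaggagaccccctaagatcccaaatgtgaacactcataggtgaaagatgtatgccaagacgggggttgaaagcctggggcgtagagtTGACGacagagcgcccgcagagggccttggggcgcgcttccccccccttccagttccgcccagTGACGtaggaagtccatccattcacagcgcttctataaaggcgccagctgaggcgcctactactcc
On both strands, GCGGGGGCG occurred in 2.57% and TGACG in 17.8% of 32851 promoter windows of this length. Of the 5 early genes above with a window, Nr4a1 held the EGR motif, and Fos, Junb, Nr4a1 and Nr4a3 held TGACG, with 2, 1, 4 and 4 matches. A match describes the letters and is not a bound site.

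Of 17 measured negative regulators of TCR signaling, Cd5, Cd6, Dusp2 and Dusp6 were at least 2-fold higher in every wild-type mouse, and none was lower in every mouse (median log2 ratio of 0.46). Cd5, a surface inhibitor whose level follows TCR signal strength, had 905, 715, 692, 844 and 555 CPM against 55.0 to 207 CPM. Dusp2, a phosphatase that turns off ERK, had 722, 578, 591, 653 and 284 CPM against 46.4 to 156 CPM. Of the 18 genes of the TCR complex and its proximal kinases, 1 passed, the adhesion receptor Cd2, and the list's median was 0.06. None of 11 calcineurin and NFAT genes was higher in every mouse and 1, Nfatc3, was lower. Of 12 NF-kappaB genes, 1 was higher, Nfkbid, which encodes a nuclear regulator of that pathway.

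Transcription factors of thymocyte identity included 6 of 21 that were higher in every wild-type mouse: Gata3, Tox, Lef1, Ikzf2, Hivep3 and Id2. The median of that list was -0.03. Gata3, which is needed for the CD4 lineage, had 389.7, 329, 337, 378 and 569 CPM against 55.6 to 122 CPM, and Tox, a factor needed to pass positive selection, had 956 to 1408 CPM against 104 to 415 CPM. Among genes of coreception and costimulation, Icos, Cd40lg, Pdcd1 and Cd53 were higher and Cd4 lower, of 12. Cd40lg, the helper T cell ligand, had 111, 66.0, 69.9, 23.0 and 111 CPM against 0 to 1.83 CPM, while Cd4 itself had 119.3, 146, 178, 231 and 249.8 CPM against 479 to 643 CPM. Coreceptor RNA was thus lower in signaled cells than in the comparator in all 5 mice.

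Migration and maturation genes were ahead of the comparator in part. Of 16 measured, Ccr7, Ccr4, Il7r, Gimap3, Gimap4 and H2-K1 were higher in every mouse and Ly6d lower. Ccr7, the chemokine receptor that leads selected cells to the medulla, had 118, 139, 152, 47.3 and 125 CPM against 5.24 to 31.2 CPM. Il7r, the receptor chain for a survival cytokine, had 129, 139, 82.6, 89.1 and 215 CPM against 0 to 19.6 CPM. Outside the genes of the rule, the highest ratio among genes past 50 CPM was that of Gpr183, a receptor for oxysterols, at a median log2 ratio of 4.17 (90.5 to 548 CPM against 0.883 to 25.6 CPM). Bcl2, which protects from death, had 482, 576, 254, 477 and 236 CPM against 15.8 to 59.6 CPM, and its relative Bcl2l1 went the other way, with 19.7 to 76.3 CPM against 142 to 248.6 CPM. In the survival list Bcl2 and Bcl2a1d were higher and Bcl2l1 lower, of 11, and of 12 cytokine genes 1, Ifngr1, was lower.

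The preselection program was lower in part, and its gene Arpp21 had chosen the comparator. Of its 13 genes, 7 were lower in every wild-type mouse, including Arpp21 itself and Rag2, Aqp11, Dntt, Ptcra and Tcf12. St6gal1 was higher and 5 genes were neither (median log2 ratio of -2.13). Rag2, a part of the enzyme that cuts TCR genes, had 0, 1.40, 6.35, 24.3 and 20.8 CPM against 156 to 233 CPM. Its partner Rag1 had 23.9, 14.04, 12.7, 335 and 638 CPM against 1168 to 3534 CPM. The unsorted mice, replicates 4 and 5, were the high ones for both. They also held more cells with Arpp21 and without Ccr7, at 31.3% and 24.6% against 10.0 to 12.5% in the sorted mice, and this was not tested.

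**Figure D2:**
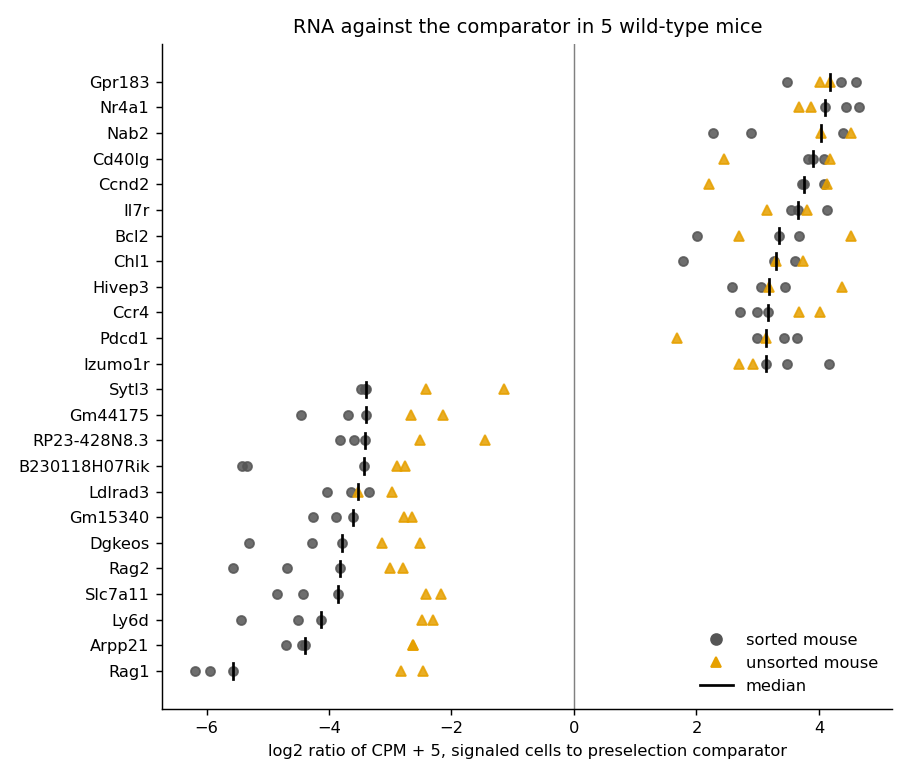
Log2 ratio of CPM + 5, signaled cells over the preselection comparator, for the 12 genes highest and the 12 lowest by the median over wild-type mice among genes past 50 CPM, the genes of the rule left out; points are mice, triangles the unsorted ones, and bars the median. Gpr183 leads at 4.17 and Rag1 is lowest at -5.57, with the unsorted mice nearer to 0 for the lower genes.

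Antibody counts did not enter the rule, so the same 5 mice give a test on protein. The edgeR quasi-likelihood test with the mouse as a block called 19 of 108 antibodies (17.6%) at a Benjamini-Hochberg adjusted p under 0.05, with 18 higher in the signaled cells (16.7%) and 1 lower (0.926%). TCRb, a chain of the receptor itself, was 50.3, 60.0, 80.3, 62.2 and 94.0 per 10000 antibody UMIs in B6 replicates 1 to 5, and 12.4, 18.1, 18.3, 14.7 and 19.9 in the comparator. It did not overlap between the groups and was higher by 2.18 ± 0.14 on the log2 scale (SE, n = 5 mice, edgeR adjusted p = 1.28e-05). The sort used CD5 and TCRb. TCRb was higher in the sorted and in the unsorted mice.

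CD278 (ICOS), a costimulatory receptor, had 169, 155, 92.7, 53.9 and 54.7 per 10000 against 64.6, 44.5, 40.3, 26.6 and 25.8, higher in all 5 mice by 1.44 ± 0.11 (SE, edgeR adjusted p = 3.51e-05). CD5 had 2403, 2098, 1917, 1174 and 1607 against 1253, 1346, 1297, 343 and 395, a rise of 1.32 ± 0.31 (edgeR adjusted p = 0.0212). The gap in CD5, an antigen of the sort, was wider in the unsorted replicates 4 and 5, whose comparator was low, than in the sorted mice, and this was not tested. CD127, the protein of Il7r, rose by 1.06 ± 0.14 (edgeR adjusted p = 0.000967). CD357 (GITR) rose by 0.82 ± 0.12 and CD274 (PD-L1) by 0.65 ± 0.07, with edgeR adjusted p = 0.00181 and 0.000233. All of these were higher in 5 of 5 mice, and the direction of RNA and protein was the same for Icos, Cd5 and Il7r.

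Among the other antibodies named, CD73, CD86, CD43 and CD200 were higher, by 0.67, 0.68, 0.50 and 0.54 on the log2 scale (edgeR adjusted p = 0.0034, 0.00325, 0.00995 and 0.0104). CD73 and CD43 lost their calls without B6 replicate 1, CD86 with library size or after thinning, and CD200 with library size. CD279 (PD-1) was called at 0.44 ± 0.07 (edgeR adjusted p = 0.00325) and lost its call without B6 replicate 1 or 2, with library size, after thinning and without the replicate block, and its share was higher in 3 of 5 mice, with 40.0, 22.5, 26.3, 20.6 and 17.1 against 25.9, 16.9, 17.6, 20.7 and 18.6. CD304 (neuropilin-1) was the lower one, by -0.48 ± 0.06 (edgeR adjusted p = 0.000967), with 3.94 to 8.81 against 5.87 to 16.01. After thinning to 2000 UMIs, with 4 mice, the difference was -1.70 ± 0.31 (edgeR adjusted p = 0.0204). CD69 protein, the product of a rule gene, was given no test and had 33.4 to 62.9 against 8.75 to 14.6. CD4 and CD8b fell short of the comparator in every mouse, CD4 at 382 to 696 against 563 to 944 (edgeR adjusted p = 0.143) and CD8b, untested, at 765 to 983 against 1401 to 1888. The split of calls depends on the scaling: with library size in place of TMM, 19 were called, 10 higher and 9 lower, and the median over antibodies moved to -0.14. Without called doublets 24 were called, 17 higher and 7 lower. Without B6 replicate 1 the count was 10 and without B6 replicate 2 it was 12.

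**Figure D3:**
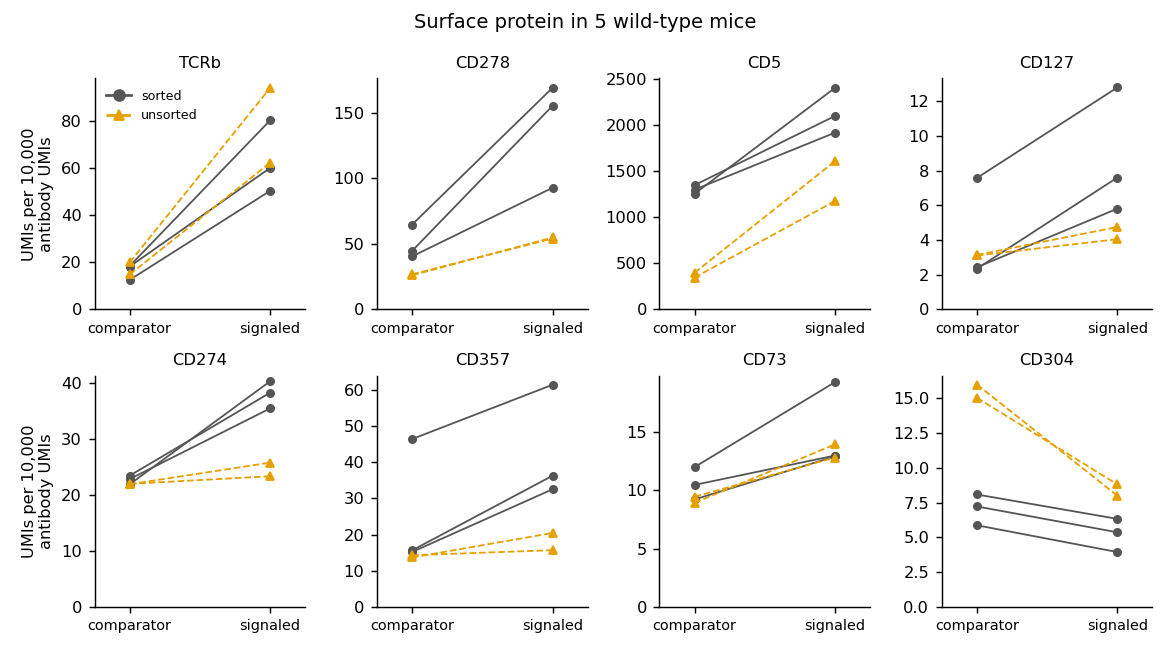
Antibody UMIs per 10000 in the preselection comparator and in the signaled cells of each of 5 wild-type mice, joined by lines, for TCRb, CD278, CD5, CD127, CD274, CD357, CD73 and CD304; triangles and dashes are unsorted mice. TCRb rises in all 5 mice and CD304 falls in all 5.

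The signaled cells were not uniform. By RNA, 326 (19.4%) held Arpp21 and no Ccr7 and are called early here, 313 (18.6%) held Ccr7 and no Arpp21 and are called late, and 990 held neither and 54 both. Of all signaled cells, 22.6% held Arpp21, 12.7% with 1 UMI, and 21.8% held Ccr7, 13.6% with 1 UMI, at a median of 4201 UMIs a cell. Arpp21 was also found in 10.6% of 14376 cells with S1pr1 (median of 5414 UMIs) and Ccr7 in 2.70% of the comparator (median of 2489 UMIs), so that a cell called early by 1 UMI may be at the background. Early and late cells are compared in the 14 mice with at least 5 of each, as medians over mice with no test for RNA, since the cells were picked on it. Klf2, which drives exit genes, went from 17.3 CPM in early to 146 CPM in late cells, and Il7r from 7.003 to 157 CPM. Id2 rose from 13.3 to 153 CPM, and Runx3, which sets the CD8 lineage, from 44.4 to 136 CPM, both higher in late cells in 13 of 14 mice. Falling RNAs included Ikzf2 (503 to 103 CPM), Myb (165 to 34.2 CPM) and Bcl6 (53.7 to 3.04 CPM). The factors Tox and Gata3 and the regulators Cd5 and Dusp2 were highest in the other cells, at 1077, 388, 679 and 704 CPM, and lower at both ends. For Cd5 the early cells were close, at 657 CPM. CD5 protein had medians of 1750, 1850 and 1958 per 10000 in early, other and late cells, higher in late than early in 10 of 14 mice.

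Protein moved along the same order. The edgeR test planned on mice with at least 20 early and 20 late cells had 2 mice and called 0 of 107 antibodies, with 13 at an unadjusted p under 0.05 and 2 by DESeq2. On the 14 mice with at least 5 of each, a setting chosen after the cell numbers were seen, 30 of 104 (28.8%) were called, 17 higher in late cells and 13 lower. When each mouse was left out, the total called ran from 21 to 33 and the split moved. The number lower ran from 11 without B6 replicate 2 to 19 without OT-I replicate 1. The number higher was 9 without OT-II replicate 1 and 10 without B6 replicate 2, B6 replicate 4 or OT-I replicate 1. It was 11 without B6 replicate 1, B6 replicate 5 or MHCII-/- replicate 1. Without called doublets 9 were higher and 17 lower. TCRb had a lowest, median and highest value of 18.1, 39.2 and 54.8 per 10000 in early cells and of 54.8, 107 and 157 in late cells. It was higher in late cells in 14 of 14 mice, by 1.59 ± 0.13 on the log2 scale (SE, edgeR adjusted p = 1.03e-07). CD69 had a median of 25.3 in early, 47.8 in other and 73.8 in late cells and rose by 1.23 ± 0.12 (edgeR adjusted p = 5.43e-07). CD278 rose by 1.29 ± 0.16 and CD127 by 1.58 ± 0.28 (edgeR adjusted p = 4.45e-06 and 0.000256), and the integrin CD11a by 0.53 ± 0.06 (edgeR adjusted p = 4.45e-06).

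Among the antibodies named here, CD8b, a chain of the coreceptor CD8, fell furthest on the log2 scale. CD8b had a lowest, median and highest value of 672, 1226 and 1575 per 10000 in early cells and 66.5, 458 and 1090 in late cells, lower in late cells in all 14 mice by -1.38 ± 0.24 (SE, edgeR adjusted p = 0.000197). CD8a fell by 1.17 on the log2 scale (edgeR adjusted p = 0.000289) and the other cells lay between early and late in 14 of 14 mice for both. CD4 did not pass, at 0.28 ± 0.12 (edgeR adjusted p = 0.099), with medians of 523 and 686. CD304 fell by 1.24 on the log2 scale (edgeR adjusted p = 4.45e-06), CD49d by 0.89 and CD29 by 0.55 (edgeR adjusted p = 0.000197 and 2.2e-05). In the protein check above, 95.9% of early, 87.8% of other and 55.4% of late cells were CD4+CD8+, and 37.7% of late cells were CD4+ only. The mice went apart in this. Late cells were CD4+CD8+ at 95.7% and 81.6% in MHCII-/- and at 81.8% in F5 replicate 1. The share was 21.4% in AND replicate 1 and 23.5% in MHCI-/- replicate 1. The lineages overlapped, with 61.5% in AND replicate 2, 48.1% in MHCI-/- replicate 2, and the CD8-fated OT-I replicate 1 between them. These mice held from 10 to 49 late cells each. In wild-type mice 42.5% of late cells were CD4+CD8+ and 51.9% were CD4+ only. After thinning to 2000 UMIs, 4 mice remained and 1 antibody was called.

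**Figure D4:**
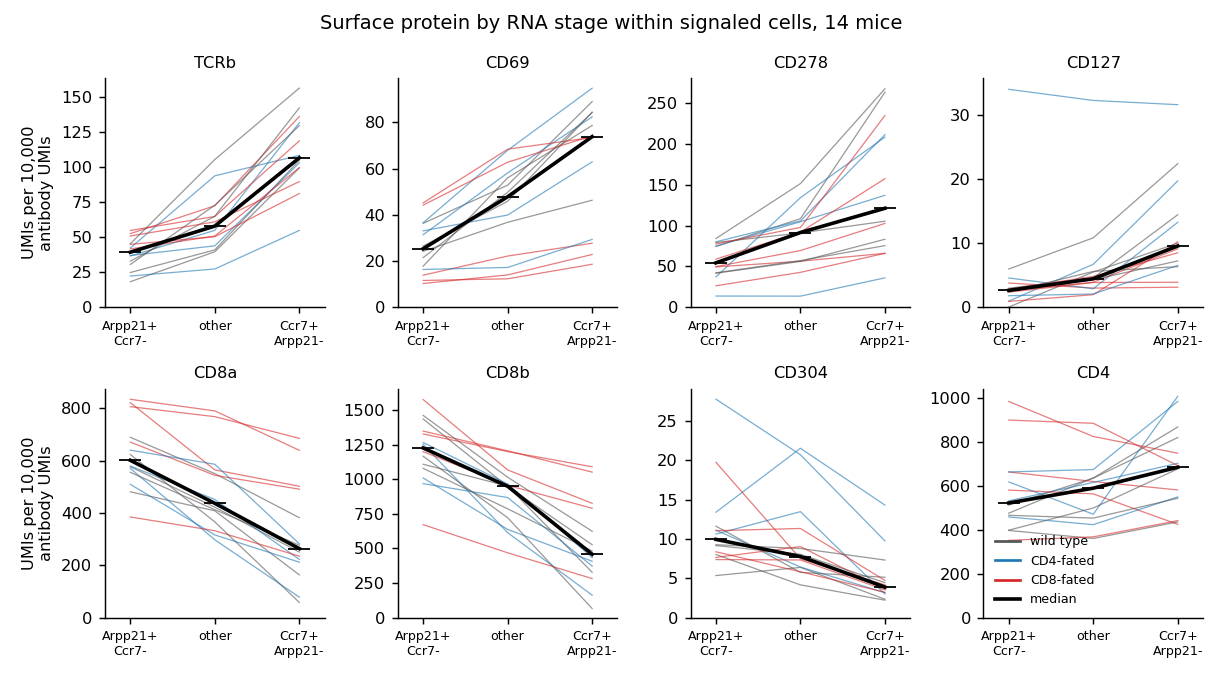
Antibody UMIs per 10000 in signaled cells that were early (Arpp21 and no Ccr7), other, and late (Ccr7 and no Arpp21), in the 14 mice with at least 5 early and 5 late cells; thin lines are mice, colored by lineage, and the black line is the median. TCRb and CD69 rise in all 14 mice, and CD8a and CD8b fall in all 14.

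Genotype was not part of the rule, so CD4-fated and CD8-fated mice were compared for RNA in the signaled cells. The rule does condition on lineage, since it needs Cd8a or Cd8b1 and drops cells with Zbtb7b or Nkg7. The 159 cells dropped for Zbtb7b alone held Cd4 at 269 CPM and Cd40lg at 164 CPM, against 139 and 52.4 CPM in the signaled cells, so the comparison covers the cells left by the rule. Sums over signaled cells of the 11 mice with at least 20 such cells (5 CD4-fated, 6 CD8-fated, OT-II replicate 2 left out with 13) were tested with a term for the pair of genotypes each mouse belonged to. The pairs, called families here, were F5 and AND, MHCII-/- and MHCI-/-, and OT-I and OT-II. Of 5018 genes, 2 were called by edgeR (0.0399%), both higher in CD4-fated cells, and 297 had an unadjusted p under 0.05. Cd4 had 198, 258, 209, 168 and 164 CPM in AND replicates 1 and 2, MHCI-/- replicates 1 and 2 and OT-II replicate 1. In the CD8-fated mice it had a lowest, median and highest value of 75.5, 80.4 and 128 CPM. The groups did not overlap, and Cd4 was higher by 1.20 ± 0.18 on the log2 scale (SE, edgeR adjusted p = 0.0034). The wild-type mice lay between 119.3 and 249.8 CPM.

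Chl1 encodes an adhesion protein of the L1 family. It had 29.4, 34.8, 82.6, 76.5 and 65.1 CPM in the CD4-fated mice in the same order, and 12.2, 16.3, 24.2, 28.3, 13.6 and 25.9 CPM in F5, MHCII-/- and OT-I. The groups did not overlap, and the difference was 1.59 ± 0.22 (SE, edgeR adjusted p = 0.00289), with the difference between means of the same sign in each of the 3 families. In the comparator of wild-type mice Chl1 was at 0.221 to 5.68 CPM. Chl1 had an adjusted p in 23 of the 27 alternatives and none in the rest, which are not counted for it. It kept its call in 21 of the 23 and lost it without the family covariate and without the MHC-deficient mice. Cd4 kept its call in 23 of 27 and lost it without AND and F5, without the MHC-deficient mice and without MHCII-/- replicate 2. With early cells only it stood at -0.08. With at least 20 early cells required, only MHCI-/- replicate 2 and MHCII-/- replicate 2 could be compared within a family. That fit cannot tell whether Cd4 differed in early cells. The count itself moved with single mice: without OT-II replicate 1 it was 33, without OT-I replicate 1 10, without MHCI-/- replicate 2 or OT-I replicate 2 5, and without MHCII-/- replicate 2 1. With late cells only, 33 genes were called in 5 mice. AND replicate 2 had no F5 partner there, so these calls compared MHCI-/- with MHCII-/- only. The fits of early and late cells covered different mice and cannot be set against each other.

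Other lineage genes did not pass. Runx3 had 80.7, 55.3, 23.6, 27.5 and 73.6 CPM in CD4-fated mice and 86.8 to 207 CPM in CD8-fated mice, a difference of -1.20 ± 0.25 (edgeR adjusted p = 0.11). Its groups did not overlap, but the adjusted p missed the threshold. Cd40lg differed by 2.15 ± 0.48 (edgeR adjusted p = 0.155) and Ikzf2, the factor Helios, by -0.90 ± 0.22 (edgeR adjusted p = 0.196). Of the 20 measured lineage factors, none was called among the cells left by the rule, where 0.0399% of all genes were called. Of these factors, 5 (Runx3, Ikzf2, Ikzf3, Id2 and Foxp1) had an unadjusted p under 0.05, against 297 of all 5018 genes. No call was made either among 18 genes of the TCR complex, 9 immediate early genes and 16 negative regulators, with median differences of 0.07, -0.10 and 0.0049 on the log2 scale beside -0.0040 over all genes. Wild-type Runx3 was at 34.7 to 69.9 CPM.

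The difference between lineages was not alike in all families. An edgeR test of the lineage-by-family terms called 60 of 5018 genes (1.2%). They included 6 of 14 measured migration and maturation genes: Ccr7, Il7r, Ly6d, Gimap3, Gimap4 and Gimap5. Ly6d, a surface protein of preselection cells, had 36.7 and 4.09 CPM in AND against 293 and 383 CPM in F5. It had 292 CPM in OT-II replicate 1 against 2.72 and 12.96 CPM in OT-I, and 32.4 and 53.5 CPM in MHCI-/- against 77.8 and 40.6 CPM in MHCII-/- (edgeR adjusted p = 1.18e-06). AND was thus low and F5 high, while the 1 OT-II mouse was high and both OT-I mice low. With 1 OT-II mouse, the spread on that side was taken from the other groups. Il7r also differed in its contrast between families (edgeR adjusted p = 0.00886), with 95.4 and 65.5 CPM in AND, 5.55 and 2.71 CPM in F5, 14.2 CPM in OT-II replicate 1 and 51.8 and 38.9 CPM in OT-I. The MHC-deficient mice had the same direction as AND against F5, with 236 and 116 CPM in MHCI-/- and 53.6 and 59.5 CPM in MHCII-/-.

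Arpp21 and Ccr7, which define the early and late cells, were themselves among the 60 genes (edgeR adjusted p = 0.00886 and 0.0295), so the share of early cells is not independent of these calls. Early cells made up 55.4% of the signaled cells in OT-II replicate 1 and 31.3% and 33.3% in F5, against 7.62 to 19.7% in the other 8 mice of the fit. The part of that in the 60 calls was not tested. The count rests on single mice as well, at 333 without OT-I replicate 1, 163 without OT-I replicate 2, and 26 to 34 without F5 replicate 1, AND replicate 2 or any 1 of the MHC-deficient mice. Hltf, a DNA helicase, was named after its values were seen: it had 1835 and 1884 CPM in AND and 32.4 to 104 CPM in every other mouse of the fit (edgeR adjusted p = 1.3e-06). Wild-type mice had 32.3 to 76.3 CPM.

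**Figure D5:**
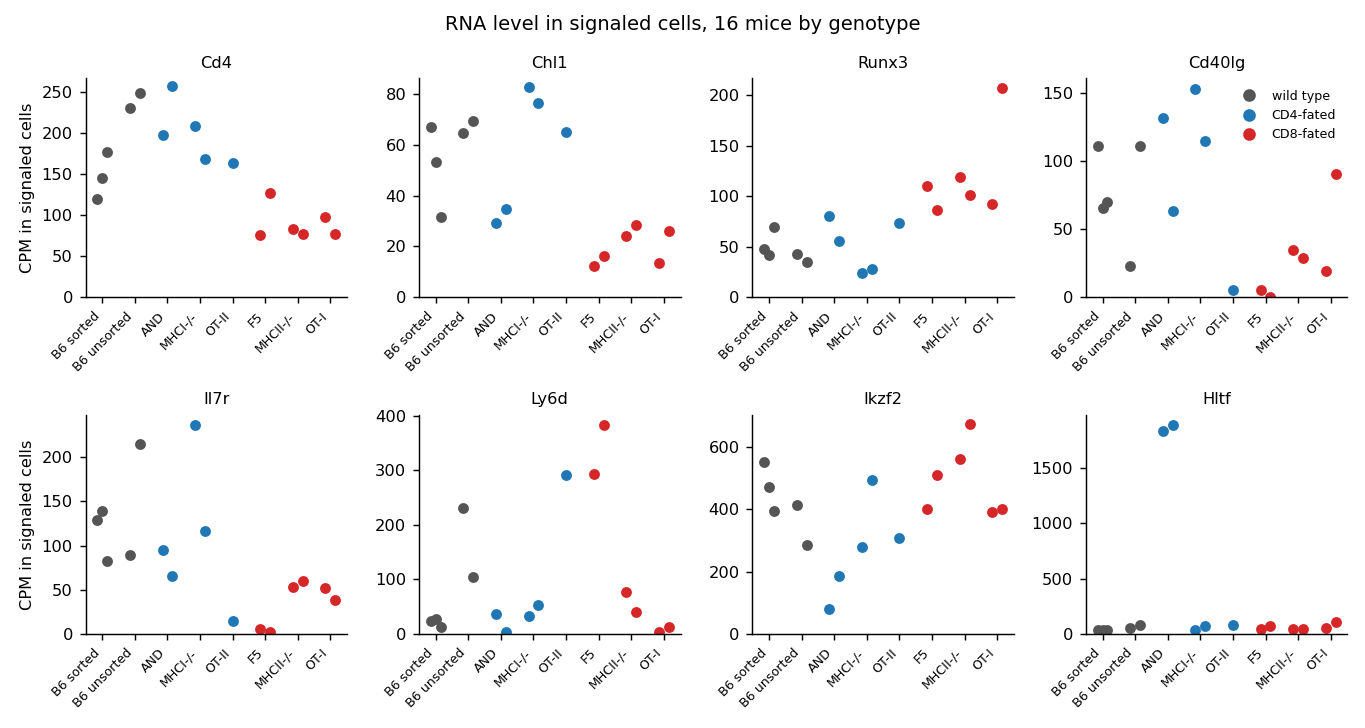
CPM of 8 RNAs summed over signaled cells in the 16 mice with at least 20 such cells, grouped by genotype and colored by lineage. Cd4 and Chl1 are higher in all CD4-fated than in all CD8-fated mice, Cd40lg, Il7r and Ly6d differ in order between families, and Hltf is high in AND alone.

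No antibody passed the test between the lineages in the signaled cells. The edgeR test called 0 of 111, with 9 at an unadjusted p under 0.05, and DESeq2 called 0. Antibody depth differed between mice, from a median of 995 UMIs per signaled cell in AND replicate 2 to 6865 in F5 replicate 1. With library size in place of TMM, 0 were called and 26 had an unadjusted p under 0.05 by edgeR. The median log2 difference over antibodies then moved from 0.045 to 0.67. The part of depth in this result was not tested. In data simulated at these depths the test found 89% of 2-fold changes for RNA, with 7 false calls among 5032 genes. The simulation held no differences between families, and for RNA it planted 100 changes of 2-fold and 100 of 4-fold. The 89% therefore does not tell how many 2-fold RNA differences the test on the real counts would find. For antibodies the test found 30% of 2-fold changes, so a 2-fold difference in protein could be missed. CD8a, for instance, was 283 to 593 per 10000 in CD4-fated mice and 316 to 791 in CD8-fated mice. CD69 protein, as a share without TMM scaling, was 12.6 and 13.5 in F5, within the range of the wild-type comparator given above. It was 17.6 in OT-II replicate 1, 21.5 and 25.5 in OT-I, and 44.7 to 71.6 in AND and the MHC-deficient mice of both lineages. TCRb was highest in AND replicate 1 at 167 and lowest in OT-II replicate 1 at 26.5, both CD4-fated. In the test by family, 1 of 111 antibodies (0.901%) was called, I-A/I-E (edgeR adjusted p = 0.00561), which the MHCII-/- mice lack by genotype. That call was lost without F5 replicate 1, OT-I replicate 1 or OT-I replicate 2, and the count was 24 without MHCI-/- replicate 2, 4 without AND replicate 2 and 2 without AND replicate 1 or MHCI-/- replicate 1.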

How the data were processed

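The authors deposited whole-number counts of UMIs per gene and antibody for each lane, and the submitters' processing notes name Cell Ranger 3.1.0 and mm10. Libraries were 10x 3' and TotalSeq-A. The pooled matrices were not used, since their barcode sets matched the lanes. The members and gene lists were chosen with earlier results of these data known. No doublets were removed in the main values. Counts of signaled cells were summed per mouse, which was the replicate, and mice with fewer than 20 were left out of tests. Sums were tested with edgeR 4.0.16 in R 4.3.3 (quasi-likelihood, TMM, low-count filter, Benjamini-Hochberg adjusted p under 0.05), with DESeq2 1.42.0 as an alternative, and the edgeR steps were tested on simulated data. RNA against the comparator was not tested. Ratios used log2(CPM + 5) over genes with at least 10 CPM. Named genes were members of 11 pathway lists, the 12 highest and 12 lowest by median ratio among genes of at least 50 CPM in either group, and up to 10 called genes or antibodies in each direction by adjusted p (for lineage RNA, with a log2 change of at least 0.5 and the same sign in all 3 families). Some genes and antibodies, such as Hltf and CD5, were named outside that rule. CD278 was listed under a pair of catalogue numbers in the third experiment, and the one in the study's antibody list was used. Antibody values are UMIs per 10000 antibody UMIs of the same cells. Mice are separate animals. In the tests between lineages and families, p-values measure the spread between mice. In the tests with the mouse as a block, they measure how the difference within a mouse varies over mice. Promoter windows came from RefSeq on GRCm38.p6.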

Additional observations from a re-analysis of the deposited data

Results flagged for a closer look

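CD73 protein in the signaled cells of B6 replicate 1 was 19.3 per 10000 antibody UMIs, apart from 12.8 to 13.95 in the other 4 wild-type mice. It was the only wild-type mouse of the first experiment, so mouse and experiment cannot be told apart. Chance sets apart about 1 in 20 groups tested this way, and 29 were tested.

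The lineage difference varied between families for 60 of 5018 genes by edgeR. The edgeR adjusted p-values of the genes named were 1.18e-06 for Ly6d, 1.3e-06 for Hltf, 1.66e-06 for Rnaset2b, 1.85e-06 for Izumo1r, 1.78e-05 for Gimap4, 0.00702 for Gimap3, 0.00886 for Il7r, 0.00886 for Arpp21 and 0.00887 for Bcl2. They were 0.00978 for Id2, 0.0138 for Gimap5, 0.0159 for Fkbp1a, 0.0159 for Cd40lg, 0.0295 for Ccr7, 0.0405 for Ighm, 0.0405 for Lef1 and 0.0432 for Hivep3. Of 14 alternatives, the call was lost in 9 for Ighm (also without called doublets), 8 for Lef1, 7 each for Fkbp1a and Hivep3, 4 for Ccr7, 3 for Gimap5, 2 for Id2 and 1 each for Il7r and Bcl2. The other genes named kept it in all 14. Hltf, Izumo1r and Rnaset2b were chosen after their values were seen. Izumo1r, a folate receptor relative, was at 286 and 229 CPM in AND, above F5 at 25.5 and 16.3 CPM, while OT-II replicate 1 at 5.67 CPM was below OT-I at 87.2 and 77.8 CPM. Rnaset2b had 110.1 to 163 CPM in AND, F5 and MHCI-/- and 1.73 to 39.7 CPM in MHCII-/-, OT-I and OT-II replicate 1. Among antibodies I-A/I-E differed by family (edgeR adjusted p = 0.00561).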

How the results depend on the processing

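The count of genes called between lineages was 2 and moved with the processing. It was 82 with no low-count filter, 1 with no family covariate and 7 with at least 2 UMIs of Cd69 and Itm2a. With late cells only it was 33, where only MHCI-/- and MHCII-/- could be compared within a family. It was 4 without AND and F5, 4 without MHCI-/- and MHCII-/-, 50 without OT-I and OT-II, and 1 to 33 when each mouse was left out. For Cd4 the early cells only gave -0.077 on the log2 scale, from MHCI-/- replicate 2 against MHCII-/- replicate 2. For antibodies the count of 0 became 9 with late cells, again MHCI-/- against MHCII-/-, and stayed at 0 when each mouse was left out. The family terms called 60 genes, 151 with no low-count filter and 26 to 333 when each mouse was left out, and 1 antibody, 4 without called doublets and 0 to 24 when each mouse was left out. The fit without OT-II replicate 1 could not be made.

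Against the comparator, 19 antibodies were called, 37 by DESeq2 and 10 to 19 when each mouse was left out. Without the mouse as a replicate block the count was 1. Late against early cells gave 0 in the planned fit on 2 mice, also without the replicate block, 2 by DESeq2 and 30 on the 14 mice with at least 5 cells of each, a setting added after the data were seen. On those 14 mice it was 11 without the replicate block, 1 after thinning to 2000 UMIs and 21 to 33 when each mouse was left out. Antibody filters, thinning and leaving out mice were not run on the 2-mouse fit. The cause of these changes was not tested.

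For AND and F5 the replicate number is also the experiment, and same-numbered deviations correlated at 0.112 over 5014 genes. The MHC-deficient mice share only a number, at 0.039. With the number as a replicate block, 3 genes and 0 antibodies were called between lineages. With a term for the first experiment, added after the data were seen, 3 genes and 0 antibodies were called between lineages, and 61 genes and 2 antibodies by family. Each lineage rested on few mice, and OT-II on 1.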
